A study of Mus musculus with 11 samples.

Results

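Small intestinal enterocyte genes were followed in mouse colorectal organoids as a group of 10 genes chosen by name: Sis, Anpep, Slc5a1, Slc2a2, Fabp1, Fabp2, Rbp2, Apoa1, Apoa4 and Apob. All 10 were present among the 47131 genes of the count table, and 8 of them were among the 14840 genes with enough counts to be tested. Fabp1 and Slc2a2 had too few counts for the test. There were 6 libraries of organoids treated with 10 pM NAP for 48 h and 5 control libraries. All organoids were grown from colon tissue of C57BL/6J mice, females 6 to 8 weeks of age, embedded in Matrigel and fed a commercial organoid growth medium. The labels do not say what NAP stands for. Control organoids are called untreated in one label and vehicle-treated with phosphate-buffered saline in another. The labels call the libraries biological replicates but tie none of them to an animal or a separate culture, so p-values here measure only library-to-library spread, and that spread may be technical.

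Enterocytes are the absorptive cells of the small intestine. Enzymes on their brush border split the last bonds of sugars and peptides, transporters carry the products in, and small soluble carriers take fatty acids and retinol through the cytoplasm to be packed, with apolipoproteins, into chylomicrons. The absorptive cells of the colon take up mainly water, salts and short-chain fatty acids, and many genes of fat, sugar and vitamin A uptake are known to be higher in the small intestine than in the colon.

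Sis is known as a target of the intestinal homeobox factor CDX2 and of HNF1 factors, which bind its proximal promoter. Among the tested members, Sis had the largest difference between groups and Apoa1 the most negative log2 fold change. Rbp2 lay inside the control range in all 6 NAP libraries, and Fabp1 was nearly without counts. For these reasons the 250 bases before the gene start of these 4 members are shown. They come from RefSeq on GRCm38.p6, an older build than that of the count table, run 5′ to 3′ along each gene's strand, and are in lower case with the letters TTTAT (a CDX core, either strand) and GTTAAT (part of an HNF1 site, either strand) in capitals. Sis lies at chr3:72967864-72968113 on the minus strand. On the plus strand lie Fabp1 at chr6:71199629-71199878, Rbp2 at chr9:98490287-98490536 and Apoa1 at chr9:46228380-46228629.
Sis: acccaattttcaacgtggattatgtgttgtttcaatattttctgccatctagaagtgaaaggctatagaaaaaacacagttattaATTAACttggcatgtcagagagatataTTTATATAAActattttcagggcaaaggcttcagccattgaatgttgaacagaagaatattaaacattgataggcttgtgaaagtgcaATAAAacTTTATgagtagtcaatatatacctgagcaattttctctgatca
Fabp1: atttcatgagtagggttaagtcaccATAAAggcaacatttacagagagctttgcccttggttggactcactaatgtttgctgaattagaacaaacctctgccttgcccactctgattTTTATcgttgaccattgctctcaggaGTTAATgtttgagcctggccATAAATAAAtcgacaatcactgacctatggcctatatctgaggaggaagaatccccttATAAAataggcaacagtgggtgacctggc
Rbp2: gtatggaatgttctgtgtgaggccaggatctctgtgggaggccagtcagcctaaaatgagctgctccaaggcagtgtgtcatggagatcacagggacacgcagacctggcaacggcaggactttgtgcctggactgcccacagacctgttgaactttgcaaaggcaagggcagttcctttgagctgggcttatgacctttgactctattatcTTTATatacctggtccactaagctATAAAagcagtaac
Apoa1: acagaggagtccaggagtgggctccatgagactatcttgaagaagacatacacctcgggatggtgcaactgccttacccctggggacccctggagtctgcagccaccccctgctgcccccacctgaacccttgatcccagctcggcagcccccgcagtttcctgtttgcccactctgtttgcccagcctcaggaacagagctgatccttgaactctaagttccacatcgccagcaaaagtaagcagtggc
The Sis window held 4 matches to TTTAT and 1 to GTTAAT. A pair of the TTTAT matches lay 50 to 39 bases before the gene start. The others overlapped matches to TATAAA, the letters of a TATA box, 138 to 129 bases before it. The Fabp1 window held 5 matches to TTTAT and 1 to GTTAAT, although the gene had almost no counts in these organoids. Of the 5, 1 lay inside a match to TATAAA, 30 to 25 bases before the gene start, and 2 shared a base. The Rbp2 window held 2 matches to TTTAT, both overlapping TATAAA, and the Apoa1 window held none. Over the group, 5 of 10 promoters held TTTAT, against 38.1% of 27025 promoters of the same length, and 2 of 10 held GTTAAT, against 6.52%. CAAAGTCCA, a core of HNF4 sites, was found in 0 of 10, against 0.381% of all. A match is a description of letters and not of a bound site.

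Per gene length, the group spanned a wide range of levels. Fabp2, the intestinal fatty acid binding protein gene, was the most abundant member, at 114 ± 55.1 FPKM in NAP libraries and 97.8 ± 74.1 FPKM in controls (the authors' values, scaled for gene length and library depth, mean ± SD, n = 6 and 5 here and below). Slc5a1, for the sodium-glucose cotransporter, followed at 58.4 ± 15.3 FPKM in NAP libraries and 44.2 ± 10.3 FPKM in controls. Rbp2, for the cytoplasmic retinol carrier of enterocytes, stood next at 33.3 ± 11.1 FPKM in NAP libraries and 26.0 ± 21.3 FPKM in controls. The order of these 3 was the same in both groups by their means.

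Below them the order of the means differed. Sis, for sucrase-isomaltase, was at rank 4 in NAP libraries with 17.8 ± 7.88 FPKM and at rank 6 in controls with 4.93 ± 4.14 FPKM. Anpep, for aminopeptidase N, had 6.85 ± 5.75 FPKM in NAP libraries and 10.3 ± 12.1 FPKM in controls, and Apoa1, for the main protein of high-density lipoprotein, had 3.99 ± 1.2 and 8.35 ± 7.58 FPKM in the same groups. Sis lay above Anpep in 6 of 6 NAP libraries, while Apoa1 lay above Sis in 4 of 5 controls. Apob, for the structural protein of chylomicrons, had 1.88 ± 0.88 FPKM in NAP libraries and 1.41 ± 0.81 FPKM in controls, and Apoa4, for a chylomicron protein made by enterocytes, had 0.67 ± 0.65 FPKM in NAP libraries and 0.83 ± 0.90 FPKM in controls. Fabp1 and Slc2a2 were last in both groups. Neighbours in the order had overlapping ranges in both groups, except that in NAP libraries Slc5a1 lay above Rbp2 without overlap.

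**Figure D1:**
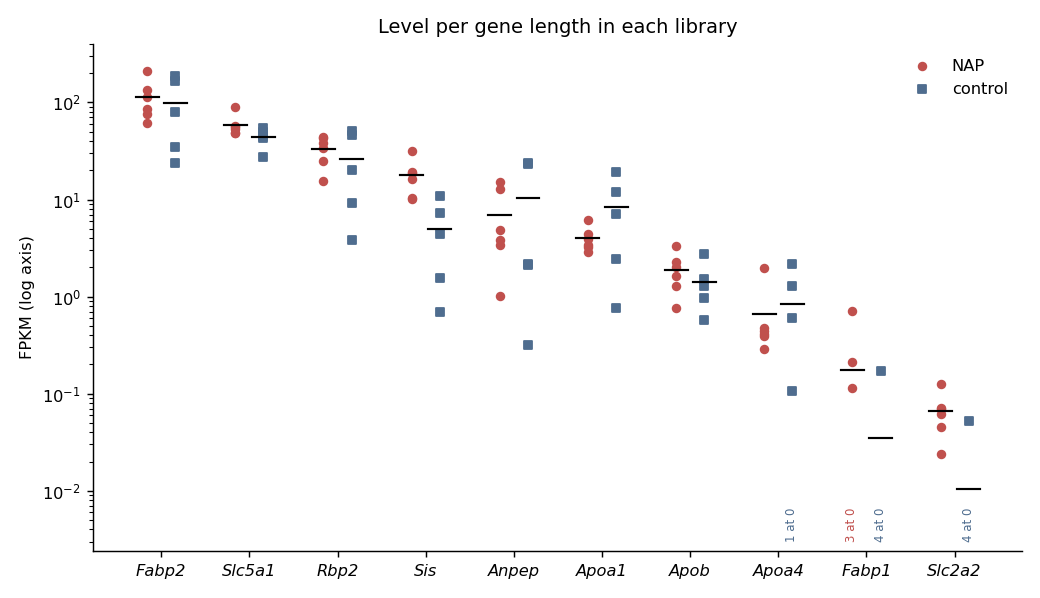
FPKM of each of the 10 genes on a log axis, with 1 point per library (NAP left in each pair, control right), a black bar at the group mean and the number of libraries at 0 written at the foot. Fabp2, Slc5a1 and Rbp2 lead in both groups, Sis stands higher in the NAP libraries (10.2 to 31.7 FPKM) than in most controls (0.69 to 10.8 FPKM), and Fabp1 and Slc2a2 stay below 1 FPKM.

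In edgeR's quasi-likelihood test with Benjamini-Hochberg adjustment over all tested genes, 0 of the 8 tested members passed an adjusted p of 0.05, where 2.12% of all 14840 tested genes did (1.05% higher and 1.07% lower in NAP libraries). DESeq2 called 1 member, Sis, where it called 11.3% of all genes, and limma called 0 in each of 3 settings. At an unadjusted p below 0.05 edgeR counted 1 member, again Sis, and 23.6% of all genes. Of the 8, 5 had a positive log2 fold change, with a median of 0.29, against 44.7% positive and a median of −0.07 over all genes tested. In no member were the CPM of the groups fully apart, whereas 2.14% of all genes lay higher and 2.57% lower in every NAP library than in every control. In bulk organoids a change in the number of cells of a type and a change in RNA per cell cannot be told apart.

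Sis, whose enzyme splits sucrose and starch fragments at the brush border, showed the largest difference among the tested members. It ran from 62.2 to 196 CPM in NAP libraries with a median of 108 CPM (counts scaled to library size with TMM factors), against 9.77, 65.7, 27.6, 4.26 and 44.3 CPM in controls 1 to 5. NAP 5 and 6, at 62.2 and 64.1 CPM, lay just below control 2, and the other 4 NAP libraries lay above every control. The means were 109 ± 49.0 CPM in NAP libraries and 30.3 ± 25.3 CPM in controls, a log2 fold change of 1.85 (SE 0.58, 95% interval 0.61 to 3.10) that did not pass the test over all genes (edgeR adjusted p = 0.0851). All 6 NAP libraries lay above the control mean. The range over the alternatives was 1.29 to 3.00, all positive, with adjusted p from 0.0113 to 0.327.

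Anpep, the other surface enzyme of the group, which trims amino acids from peptides, was spread too widely for a direction. It ran from 4.02 to 60.6 CPM in NAP libraries with a median of 17.2 CPM, against 1.29, 90.8, 8.48, 8.61 and 95.5 CPM in controls 1 to 5. Controls 2 and 5 were the highest of all 11 libraries and control 1 the lowest. The log2 fold change was −0.59 (SE 0.91, 95% interval −2.55 to 1.37, edgeR adjusted p = 0.726), and its sign turned under 5 alternatives. In NAP 1, where Sis was highest at 196 CPM, Anpep was at its lowest NAP value of 4.02 CPM.

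Slc5a1, which brings glucose and galactose in together with sodium, was the steadiest member. It ran from 193 to 363 CPM in NAP libraries with a median of 221 CPM, against 188, 222, 177, 113 and 203 CPM in controls 1 to 5. NAP 1 stood apart at the top, NAP 3 and 6, at 229.7 and 228 CPM, lay just above the highest control, and the other 3 NAP libraries lay within the control range. All 6 lay above the control mean. The log2 fold change was 0.39 (SE 0.22, 95% interval −0.07 to 0.86, edgeR adjusted p = 0.288). Its coefficient of variation among controls was 23.0%, against 57.5% to 117% for the other tested members.

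Slc2a2, the facilitative transporter of glucose and fructose known as GLUT2, was near the limit of detection. It had 6, 2, 3, 3, 1 and 4 counts in NAP 1 to 6, and 3 counts in control 4 with 0 in the other 4 controls. Where none was counted, a level of up to 0.137 to 0.181 CPM, depending on the library, would still be possible. These limits are 3 counts over the library total, without the TMM factors used for other CPM values. Summed over libraries there were 19 counts in NAP and 3 in control, a ratio of 5.34 per count sequenced with an exact 95% interval of 1.57 to 28.2, for counting error only. A gene annotated on the opposite strand overlaps Slc2a2 and had 2 counts in all. With no low-count filter edgeR gave an adjusted p of 0.323.

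**Figure D2:**
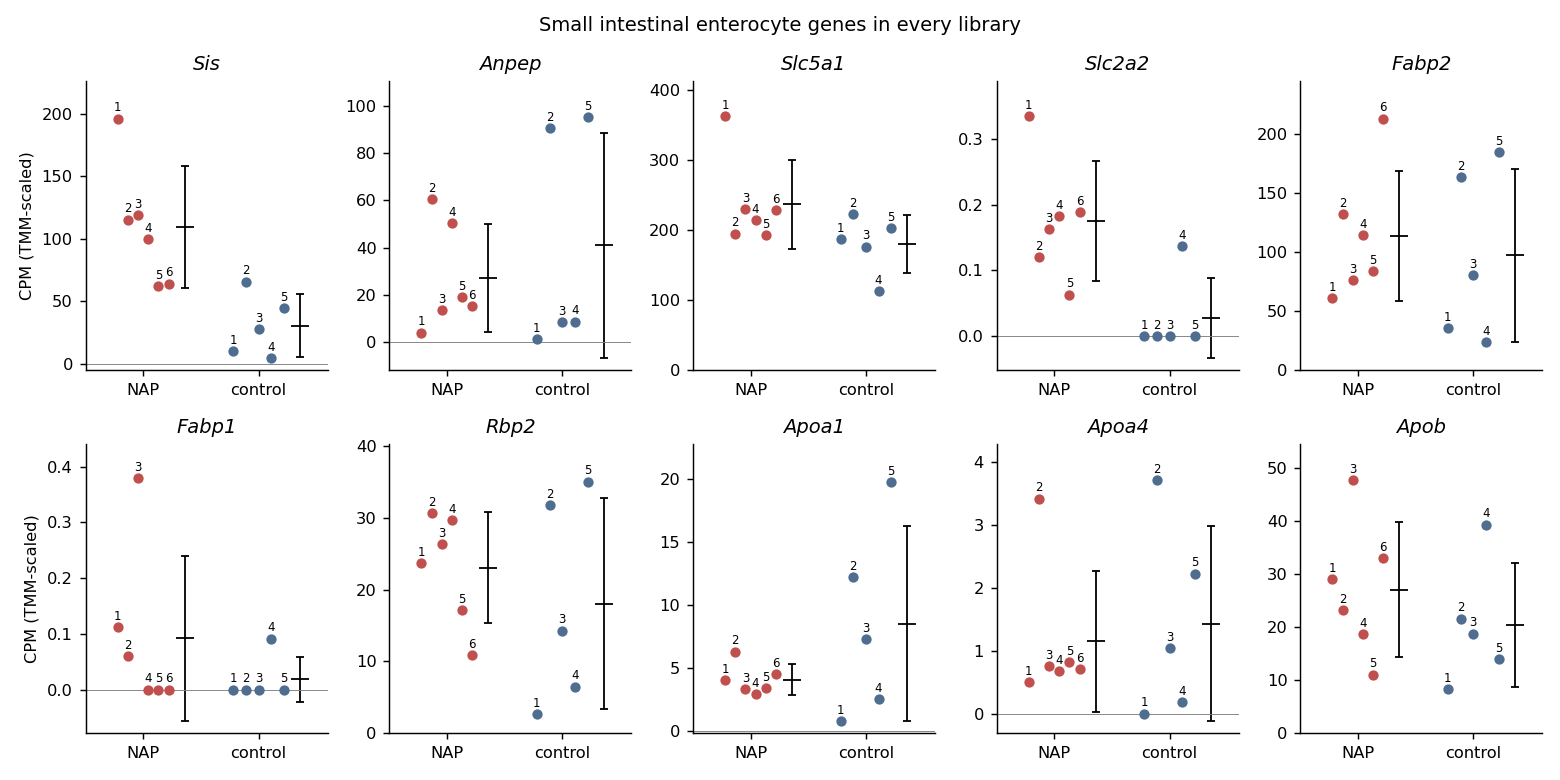
TMM-scaled CPM of the 10 genes on linear axes of their own, 1 numbered point per library (NAP left, control right), with mean ± SD beside each group. Sis shows 4 of 6 NAP libraries above every control. Controls 2 and 5 top the control group for Anpep, Fabp2, Rbp2, Apoa1 and Apoa4.

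Fabp2, which binds long-chain fatty acids in enterocytes, overlapped between groups across nearly its whole range. It ran from 61.4 to 213 CPM in NAP libraries with a median of 99.2 CPM, against 35.5, 163, 80.6, 23.5 and 184 CPM in controls 1 to 5. NAP 6 was the highest library and controls 4 and 1 the lowest. The log2 fold change was 0.22 (SE 0.50, 95% interval −0.85 to 1.29, edgeR adjusted p = 0.815), and without NAP 6 or without control 4 it was −0.05 and −0.02. A gene on the opposite strand overlaps Fabp2, with 91 counts in all libraries together, so reads of that pair could be shared.

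Fabp1, the liver-type fatty acid binding protein gene and in the mouse a marker of proximal small intestine, had 12 counts in all 11 libraries. There were 2, 1 and 7 counts in NAP 1 to 3 and 0 in the other 3 NAP libraries, against 2 in control 4 and 0 in the other 4 controls. The ratio of NAP to control per count sequenced was 4.21, with an exact 95% interval of 0.90 to 39.5, and NAP 3 held 7 of the 10 NAP counts. No difference was detectable at this depth.

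Rbp2 ran from 10.9 to 30.7 CPM in NAP libraries with a median of 25.1 CPM, against 2.67, 31.8, 14.3, 6.46 and 35.1 CPM in controls 1 to 5. All 6 NAP libraries lay inside the control range. The log2 fold change was 0.36 (SE 0.53, 95% interval −0.79 to 1.51, edgeR adjusted p = 0.715).

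Apoa1 and Apoa4 lie close together on chromosome 9, at 46139928 to 46141767 and 46152142 to 46154756 of GRCm39, both on the plus strand. Apoa1 ran from 2.92 to 6.29 CPM in NAP libraries with a median of 3.71 CPM, against 0.78, 12.2, 7.27, 2.52 and 19.8 CPM in controls 1 to 5. The NAP libraries formed a narrow band that no control entered: 3 controls lay above it and 2 below. The log2 fold change was −1.06 (SE 0.59, 95% interval −2.34 to 0.22, edgeR adjusted p = 0.299). Apoa4 ran from 0.50 to 3.41 CPM in NAP libraries with a median of 0.73 CPM, against 0, 3.70, 1.04, 0.18 and 2.22 CPM in controls 1 to 5. NAP 2 stood apart at the top of its group, at a level close to that of control 2. Its log2 fold change was −0.29 (SE 0.88, 95% interval −2.21 to 1.62, edgeR adjusted p = 0.865).

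Apob did not share the controls' order with these genes. It ran from 10.995 to 47.7 CPM in NAP libraries with a median of 26.1 CPM, against 8.34, 21.6, 18.8, 39.3 and 14.0 CPM in controls 1 to 5. Control 4, among the lowest 2 controls for Sis, Fabp2, Apoa1, Apoa4 and Rbp2, was the highest control for Apob. The log2 fold change was 0.41 (SE 0.40, 95% interval −0.46 to 1.28, edgeR adjusted p = 0.563).

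The same control libraries stood high or low for most members. Controls 2 and 5 were the highest 2 controls for Sis, Anpep, Slc5a1, Fabp2, Rbp2, Apoa1 and Apoa4, that is for 7 of the 8 tested members. Control 1 or control 4 was the lowest control for all 8. Marker lists of cell types moved with them. The summed level of 20 colonocyte markers, all of them tested, was 14929 to 22235 CPM in NAP libraries and 5932 to 29736 CPM in controls, where controls 2 and 5 were at 29736 and 29110 CPM and controls 1 and 4 at 7342 and 5932 CPM. The summed level of 16 stem cell markers was 1116 to 1625 CPM in NAP libraries and 891 to 2782 CPM in controls, with controls 1 and 4 at 2395 and 2782 CPM and controls 2 and 5 at 891 and 985 CPM. The part of these cell types in the members' values was not tested.

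**Figure D3:**
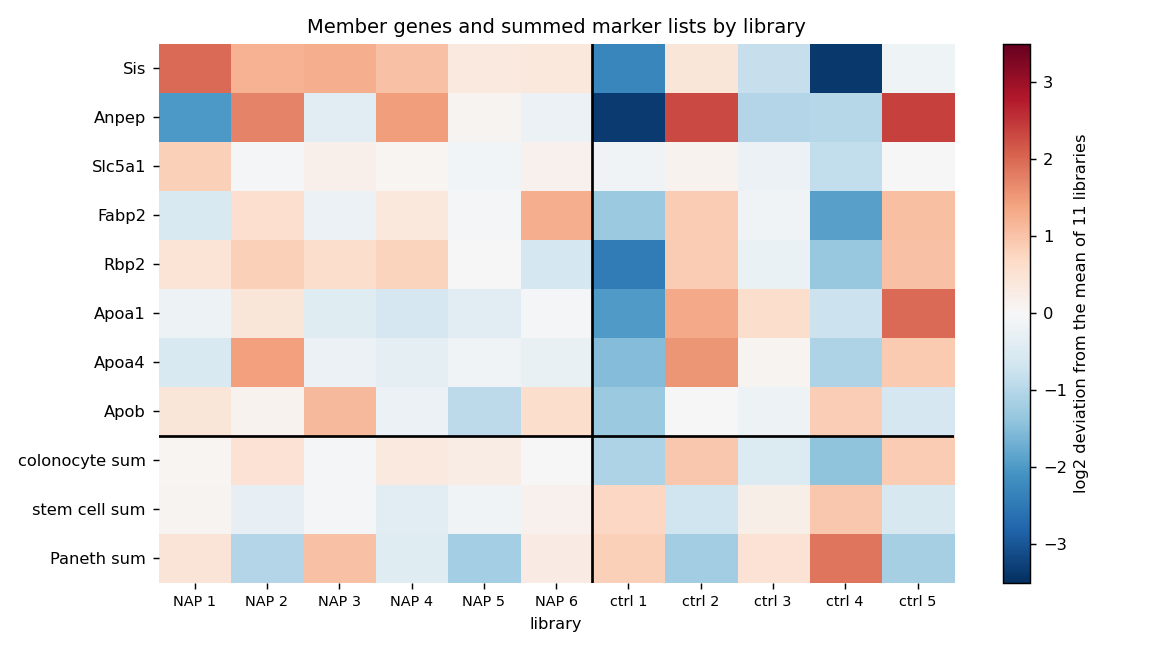
Log2 deviation of each library (NAP 1 to 6 left, controls 1 to 5 right) from the mean over all 11, for the 8 tested members (log2 of CPM + 0.5) and for the summed CPM of colonocyte, stem cell and Paneth cell marker lists (log2 of the sum). Controls 1 and 4 are low and controls 2 and 5 high for most members and for the colonocyte sum, and the stem cell sum runs the other way.

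Which controls were used set the direction of several members. Controls 1 and 4 are the lowest 2 controls for Apoa1, and controls 2 and 5 the highest 2 for Sis, so leaving them out had to move these fold changes away from 0; the values show how far and are no test. Without controls 1 and 4, the log2 fold change of Apoa1 was −1.65, that of Sis 1.29, that of Fabp2 −0.30 and that of Rbp2 −0.19. In that fit edgeR called 1 member, Apoa1, and 8.28% of all genes tested. Without controls 2 and 5, Sis was at 3.00, Anpep at 2.16, Rbp2 at 1.58, Fabp2 at 1.31 and Apoa1 at 0.23. In that fit edgeR called 1 member, Sis, and 5.32% of all genes tested. Sis, Slc5a1 and Apob were positive in all 3 fits and the other 5 tested members changed sign between them.

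**Figure D4:**
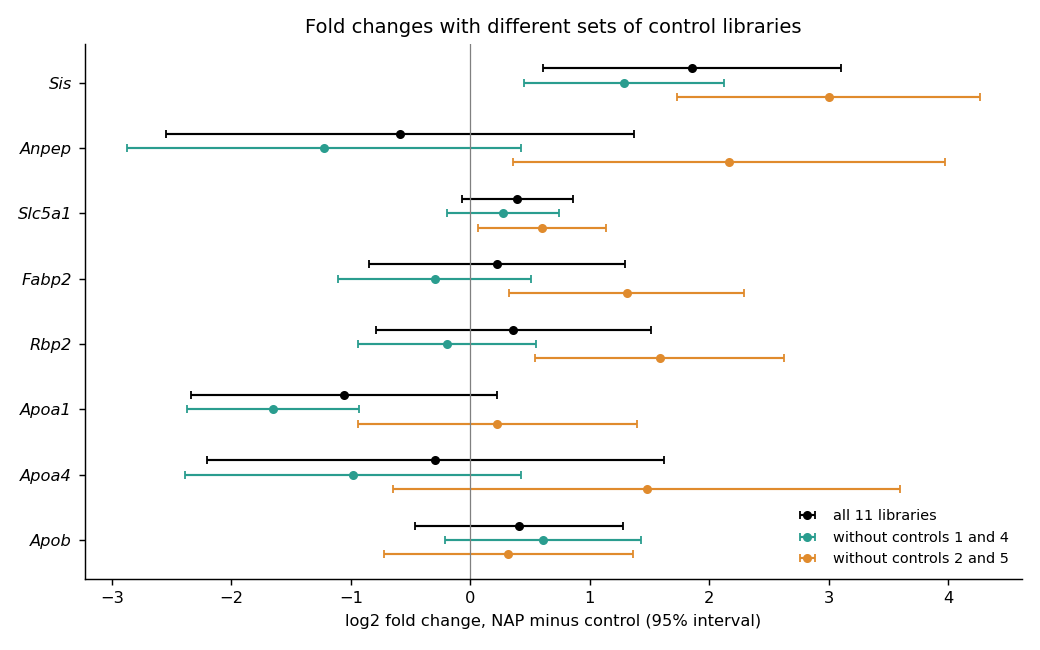
Log2 fold change, NAP minus control, with its 95% interval for the 8 tested members, using all 11 libraries, leaving out controls 1 and 4, or leaving out controls 2 and 5. Sis stays above 0 in the 3 fits (1.29 to 3.00), while Anpep, Fabp2, Rbp2, Apoa1 and Apoa4 cross 0.

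Sis was also set against each other tested member within the same library, which removes the scaling between libraries. The ratio of Sis to Apoa1 in FPKM was 2.37 to 8.09 in NAP libraries and 0.28 to 2.07 in controls, and that of Sis to Apoa4 was 9.45 to 109 in NAP libraries and 4.96 to 7.44 in the 4 controls with an Apoa4 count. Neither ratio overlapped between groups, and the other 5 did. Among 14456 genes with a count in every library, 33.1% gave a ratio of Sis to the gene that was higher in every NAP library than in every control, so these ratios say little about Apoa1 or Apoa4.

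By Pearson's r of log2 CPM over the 11 libraries, the genes most like Sis were Oat (0.98), Slc25a42 (0.97), Fgl1 (0.95), Hao2 (0.95) and Fam161a (0.95), among 12447 named genes with a median r of −0.08. By Spearman's rho, which uses ranks, they stood lower, at 0.97, 0.81, 0.90, 0.76 and 0.82 in the same order. With the group means removed, the 5 stood at a Pearson's r of 0.90 to 0.97. They were picked for this likeness, and the libraries share the batch label and the spread among controls described above. Oat encodes ornithine aminotransferase and had 133 ± 20.6 CPM in NAP libraries and 94.9 ± 24.0 CPM in controls. Hao2, a peroxisomal hydroxy acid oxidase gene, had 172 ± 30.2 CPM in NAP libraries and 66.2 ± 57.0 CPM in controls. None of the 5 passed the test over all genes (edgeR adjusted p = 0.112 to 0.182).

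Other enterocyte genes were described by lists. Over all genes tested, edgeR called 2.12%, and 23.6% had an unadjusted p below 0.05. Of 15 other brush border hydrolases 13 were tested, 8 with a positive log2 fold change (median 0.19) and 0 called by edgeR, with 1 at an unadjusted p below 0.05, Dpp4. Dpp4, for dipeptidyl peptidase 4, had 35.2 ± 19.9 CPM in NAP libraries and 10.4 ± 6.32 CPM in controls (log2 fold change 1.77, edgeR adjusted p = 0.0757). DESeq2, which called 11.3% of all genes, gave Dpp4 an adjusted p of 0.00832. With GC and length trends removed, Dpp4 was at a log2 fold change of 1.22 (edgeR adjusted p = 0.275). Treh, for trehalase, had 4.46 ± 2.10 CPM in NAP libraries and 1.53 ± 1.39 CPM in controls (edgeR adjusted p = 0.275). Lct, the lactase gene, was too low to test, at 0.026 ± 0.046 CPM in NAP libraries and 0.088 ± 0.058 CPM in controls. Mgam, for maltase-glucoamylase, the close relative of sucrase-isomaltase, had 272 ± 36.3 CPM in NAP libraries and 239 ± 69.7 CPM in controls (edgeR adjusted p = 0.607) and was named after its value was seen.

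In the list of 11 sugar uptake and metabolism genes 8 were tested, 4 positive (median 0.16) and 0 called by edgeR. Only 1, Mlxipl, had an unadjusted p below 0.05, against 23.6% of all tested genes. Mlxipl, for the sugar-responsive factor ChREBP, had 170.5 ± 42.3 CPM in NAP libraries and 108 ± 23.2 CPM in controls (edgeR adjusted p = 0.0952), and the sodium-dependent sugar transporter gene Slc5a9 had 21.7 ± 2.06 and 17.0 ± 3.13 CPM in the same groups (edgeR adjusted p = 0.217). Of 20 fat absorption and lipoprotein genes 18 were tested, 9 positive (median 0.07) and 0 called by edgeR. Of the 18, 3 had an unadjusted p below 0.05, against 23.6% of all tested genes. They were Apobec1, Mttp and the acyl-CoA synthetase gene Acsl5, all higher by their means in NAP libraries. Apobec1, whose enzyme edits the Apob transcript, had 15.96 ± 9.38 CPM in NAP libraries and 8.35 ± 2.73 CPM in controls (edgeR adjusted p = 0.156). Mttp, whose protein loads fat onto apolipoprotein B, had 56.2 ± 22.3 CPM in NAP libraries and 25.9 ± 17.9 CPM in controls (edgeR adjusted p = 0.169). Of 10 genes of retinoid handling 8 were tested, 1 positive and 7 negative (median −0.51), where 44.7% of all tested genes were positive. In edgeR 0 were called and 0 had an unadjusted p below 0.05. The list summed to 342 to 489 CPM in NAP libraries, 716 and 686 CPM in controls 2 and 5, and 229, 286 and 159 CPM in controls 1, 3 and 4. Its genes with the smallest p were Aldh1a1, whose enzyme makes retinoic acid, at a log2 fold change of 0.52 (edgeR adjusted p = 0.366), and Dgat1, whose enzyme esterifies fat and retinol, at −0.45 (edgeR adjusted p = 0.378).

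Of 12 genes that mark stretches of the small intestine 10 were tested, 7 positive (median 0.27). In this list 1 was called and 3 had an unadjusted p below 0.05, against 2.12% and 23.6% of all tested genes. Slc15a1, the peptide transporter gene, was the call, at 128 ± 31.0 CPM in NAP libraries and 36.4 ± 22.5 CPM in controls (log2 fold change 1.82, edgeR adjusted p = 0.0420). That call was lost when any one of 8 single libraries was left out: controls 1, 2, 3 or 5, or NAP 2, 4, 5 or 6 (adjusted p up to 0.116). It also missed the threshold with no low-count filter and with GC and length trends removed (adjusted p = 0.0516 and 0.0741). The others at an unadjusted p below 0.05 were Slc10a2 and Slc40a1. Slc10a2, the ileal bile acid transporter gene, had 56.4 ± 14.1 CPM in NAP libraries and 16.8 ± 8.50 CPM in controls (log2 fold change 1.75, edgeR adjusted p = 0.0523). Slc15a1 and Slc10a2 were higher in every NAP library than in every control, as were 2.14% of all tested genes. Slc40a1, the iron exporter gene, had 1415 ± 702 CPM in NAP libraries and 460.1 ± 330.5 CPM in controls (log2 fold change 1.62, edgeR adjusted p = 0.111). Fabp6, the ileal bile acid binding protein gene, was too low to test, at 0.15 ± 0.21 CPM in NAP libraries and 0.21 ± 0.25 CPM in controls. Gata4, a factor of the proximal small intestine, had 3.06 ± 1.78 CPM in NAP libraries and 3.43 ± 3.09 CPM in controls (edgeR adjusted p = 0.912).

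Of 14 transcription factors known to drive enterocyte genes 13 were tested, 5 positive (median −0.03) and 0 called by edgeR. Of the 13, 2 had an unadjusted p below 0.05, against 23.6% of all tested genes. These 2 were Cdx1 and Cdx2, both lower in NAP libraries by their means. Cdx1 had 160.4 ± 61.05 CPM in NAP libraries and 313 ± 92.4 CPM in controls, and Cdx2 had 185 ± 24.6 and 326 ± 113 CPM in the same groups (edgeR adjusted p = 0.0694 and 0.0815). With DESeq2, which called 11.3% of all genes, their adjusted p was 0.0165 and 0.0285. With GC and length trends removed, Cdx1 was at a log2 fold change of −0.25 and Cdx2 at −0.36 (edgeR adjusted p = 0.500 and 0.416), against −0.96 and −0.82 without that correction. Hnf4a, a known regulator of many of these genes that was named after its value was seen, had 1093 ± 208 CPM in NAP libraries and 987 ± 264 CPM in controls (edgeR adjusted p = 0.726).

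**Figure D5:**
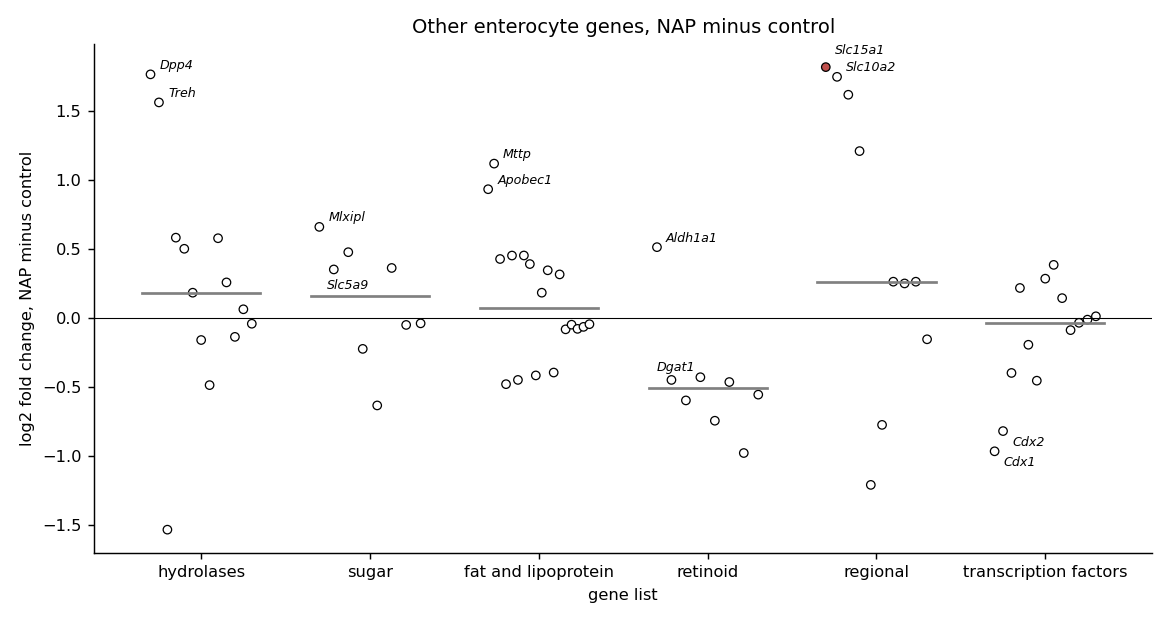
Log2 fold change, NAP minus control, of every tested gene in 6 lists of other enterocyte genes, with a grey bar at the list median, a filled point where the gene passed an adjusted p of 0.05, and the 2 genes with the smallest p named. Slc15a1 is the only filled point, retinoid genes lie mostly below 0 and Cdx1 and Cdx2 are the lowest of the transcription factors.

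The tissue label was checked against markers. The colonic carbonic anhydrase gene Car1 had 2178 ± 743 CPM in NAP libraries and 2265 ± 1873 CPM in controls. Ceacam1 was the 1 of 20 colonocyte markers called (log2 fold change 0.94, edgeR adjusted p = 0.0383), where 2.12% of all tested genes were. That call was lost without controls 1, 2, 3 or 5 or without NAP 2, 4 or 5 (adjusted p up to 0.112). It was also lost with GC and length trends removed (0.0648). At an unadjusted p below 0.05 edgeR counted 5 of the 20, all higher in NAP libraries, against 23.6% of all tested genes. Ceacam1 and Emp1 were higher in every NAP library than in every control, as were 2.14% of all tested genes. Paneth cells belong to the small intestine. Of 8 Paneth markers 5 were tested, 5 negative and 0 called, with sums of 49.5 to 229 CPM in NAP libraries and 48.3 to 411 CPM in controls. In both groups Lyz1 led these markers by the mean and Ang4 by the median. The defensin genes Defa17, Defa24 and Defa30 averaged 0.028, 0.26 and 0.081 CPM in NAP libraries and 0.12, 0.65 and 0.055 CPM in controls. The Paneth sum was highest in control 4 and NAP 3, the libraries with the 2 highest Apob values of 39.3 and 47.7 CPM. Control 1, next in the Paneth sum at 202 CPM, had the lowest Apob value of all libraries, 8.34 CPM. The part of Paneth cells in the Apob values was not tested. Sums over 8 stromal markers (1.17 to 28.8 CPM in NAP libraries, 1.61 to 8.23 CPM in controls), 8 immune markers (9.86 to 24.4 and 6.22 to 14.6 CPM) and 7 gastric markers in the table (0.25 to 2.79 and 1.11 to 2.11 CPM) were low in the same order of groups. Goblet sums were 2248 to 5058 CPM in NAP libraries and 3685 to 7610 CPM in controls, enteroendocrine sums 248 to 562 and 222 to 657 CPM, and tuft sums 2.43 to 7.02 and 1.89 to 6.29 CPM, with Il25 at 0 in every library. No goblet, enteroendocrine, tuft, Paneth, gastric, stromal, immune or stem cell marker was called.

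Base composition and length moved with the groups across all genes. The Sis transcript had a GC content of 40.5% and a gene length of 5953 bases, against medians of 49.8% and 3466 bases over all tested genes. The 611 tested genes in the same bins of GC content and of length, 5 bins each, had a median log2 fold change of 0.28. For Apoa1 and Apoa4, at 56.8% and 57.6% GC, the 475 genes of their bin had a median of −0.67. With GC and length trends removed, Apoa1 was at −0.24 (95% interval −1.36 to 0.88, edgeR adjusted p = 0.820) and Apoa4 at 0.45 (edgeR adjusted p = 0.793). In the same fit the Sis log2 fold change was 1.29 (edgeR adjusted p = 0.327), and edgeR called 0 of 12472 genes, with 2363 at an unadjusted p below 0.05.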

How the data were processed

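RNA was sequenced from 11 libraries of colorectal organoids, after poly(A) selection per the labels' protocols. The authors deposited whole-number counts per gene and FPKM values for the same genes. Per the submitters' processing notes, reads went through Trimmomatic 0.39, HISAT2 2.2.1 and featureCounts of Subread 2.0.8 on GRCm39. For strand, annotation release and reads with several matches, settings were not given in the sources used here. Count totals were 16546263 to 21947414 per library. The 95% intervals of log2 fold changes come from the edgeR fit and take in library-to-library spread. Floors (3 counts) and the intervals for summed counts cover counting error only. Intervals for summed counts of untested members are exact Clopper-Pearson at 95%, turned into ratios.

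Genes were kept with filterByExpr, scaled with TMM and tested, NAP minus control, by the quasi-likelihood test of edgeR 4.0.16 (R 4.3.3), without covariates; the batch label is 1 throughout. SE is the log2 fold change over the square root of the F statistic. Alternatives used DESeq2 1.42.0, limma 3.58.1 on voom weights or log2(FPKM + 1) or log2(FPKM + 0.1), other scalings and filters, a replicate block and libraries left out. A fit with GC and length trends removed (GENCODE M21 transcripts, lowess span 0.3, 84.0% of tested genes with a value) was chosen after seeing the data. The procedure was tested on simulated data. Members, lists and alternatives were chosen with earlier results of these data known. Named were all members, the called genes or else the 2 smallest p-values of each other enterocyte list, and the 5 genes most like Sis; others named serve the check of the tissue or were named after their values were seen.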

Additional observations from a re-analysis of the deposited data

Results flagged for a closer look

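In 20 groups of values (10 genes, NAP and control), 5 held a library far from the others of its group by Dixon's test. Chance gives about 1 in 20 groups only for normally distributed values, so that rate does not apply to groups with most libraries at or near 0. Slc5a1 stood at 363 CPM in NAP 1, the library that was also highest for Sis. Apoa4 stood at 3.41 CPM in NAP 2. Fabp1 stood at 0.379 CPM in NAP 3 and at 0.0916 CPM in control 4, and Slc2a2 at 0.137 CPM in control 4. These 3 values rest on 7, 2 and 3 counts. Control 4 was the only control with a count of either gene, so any value there would have been flagged.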

How the results depend on the processing

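With all libraries edgeR called 0 members. The count was 1 with DESeq2 (Sis, log2 fold change 1.86, adjusted p = 0.0113), 1 without controls 1 and 4 (Apoa1, −1.65) and 1 without controls 2 and 5 (Sis, 3.00), moves that the choice of controls fixed, and 0 under each other alternative. The median of the tested members, 0.29, was 1.39 without controls 2 and 5 and −0.25 without controls 1 and 4, and 0.05 to 0.48 with 1 library left out. The sign of Anpep, −0.59 with all libraries, turned with voom weights (0.54), log2(FPKM + 1) (0.0405), log2(FPKM + 0.1) (0.27), the replicate block (0.38) and without controls 2 and 5 (2.16). That of Apoa4, −0.29, turned with voom weights (0.99), log2(FPKM + 0.1) (0.23), the replicate block (0.32), GC and length trends removed (0.45) and without controls 2 and 5 (1.48), and ran from −1.01 to 0.46 with 1 library left out. Apoa1 turned to 0.23 without controls 2 and 5, and Dgat1 to 0.31. Without controls 1 and 4, Fabp2 turned to −0.30 and Rbp2 to −0.19, and Fabp2 ran from −0.054 to 0.59 with 1 library left out. The cause was not tested. Replicate numbers are shared between groups, and same-numbered libraries deviated together for 3 of 5 numbers but not for every one (correlations of 0.42, 0.34, −0.07, −0.30 and 0.30 for numbers 1 to 5), so pairing was not established. With that block edgeR called 0 genes (2903 at an unadjusted p below 0.05), Sis stood at 2.41 (adjusted p = 0.160), and the calls of Slc15a1 and Ceacam1 were lost (adjusted p = 0.130 and 0.137). All genes called numbered 315 with all libraries, 1675 with DESeq2, 89 with no low-count filter and 0 to 814 with 1 library left out. Apoa4, at 0 to 57 counts per library, was not tested under the stricter CPM filter.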
